A study of Mus musculus with 37 samples.

Results

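The response of the Timp1 knockout colon to chronic dextran sodium sulphate (DSS) was read from 10 of the 37 arrays of the series, chosen by title. They comprised 5 arrays of knockout colon after chronic DSS and 5 of knockout colon from the chronic control group. All mice of both groups carried the Timp1tm1Pds allele, described in the labels as B6.129S4-Timp1tm1Pds/J with the strain given as C57BL/6J, so DSS was the labelled difference between the groups. DSS was given by mouth, and the labels used here state no dose, number of cycles, age, sex or treatment of the controls. RNA came from snap frozen colon, and the arrays, of the Affymetrix Mouse Gene 1.0 ST type, carry probes along the length of each gene. Whole colon was used, so fewer cells of a type and less RNA per cell cannot be told apart in any value below. Other comparisons were set beside this one: chronic DSS in C57BL/6J wild-type mice (5 arrays with DSS, 5 controls) and acute DSS in knockout mice (6 arrays with DSS, 3 controls).

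DSS damages the colonic epithelium and lets luminal bacteria reach the mucosa, and repeated exposure leads to cycles of ulceration and regrowth with a lymphocyte-rich infiltrate. TIMP1 is a secreted inhibitor of matrix metalloproteinases, the enzymes that cut collagen and other matrix proteins, and is itself induced in inflamed tissue. The colonic mucosa answers injury with antimicrobial lectins from epithelial cells, with interferon-driven antigen presentation and with regrowth from crypt stem cells.

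Values are log2 signals, and each difference is DSS minus control with its standard error from a linear model (limma) fitted to all 37 arrays. Adjustment for 19938 genes followed Benjamini and Hochberg, and a gene passed at an adjusted p under 0.05. Nothing in the labels says whether the 5 mice of a group shared a cage or litter. The p-values treat each array as an independent animal and measure the spread between arrays. That spread was pooled within the groups of all 37 arrays, so it is not that of the knockout chronic mice alone.

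The tissue was colon by its markers. Muc2, the main secreted mucin of goblet cells, had a log2 signal of 14.21 ± 0.04 in DSS arrays and 14.11 ± 0.18 in controls (SD, n = 5 each). Car1, a carbonic anhydrase of surface colonocytes, had 13.86 ± 0.33 in DSS arrays and 13.65 ± 0.13 in controls. Median signals of the 10 arrays lay between 7.67 and 7.73, and the Y-linked gene Uty stayed at or below 5.24 in all of them, against up to 9.95 elsewhere in the series. Some arrays stood apart within their group. On a principal component that held 15.9% of the variance, DSS replicate 1 lay at 25.66 and DSS replicate 5 at 17.30, while the other 3 DSS arrays lay between -5.62 and -5.45 and the controls between -9.44 and 3.0. The title letters 14a and 14c occurred only among DSS arrays and 14b and 14d only among controls. What the letters stand for is not given, and they cannot be told apart from the treatment.

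Timp1 itself did not separate the groups. Its log2 signals were 7.30, 7.10, 7.01, 6.83 and 6.89 in DSS replicates 1 to 5, against 7.03, 6.84, 6.95, 7.46 and 7.43 in control replicates 1 to 5. The groups overlapped, with a difference of -0.11 ± 0.34 (adjusted p = 0.881). In wild-type colon Timp1 averaged 8.41 ± 0.84 after chronic DSS and 7.13 ± 0.12 in controls (SD, n = 5 each), a difference of 1.28 that passed (adjusted p = 0.010). The test of the difference between genotypes had an unadjusted p of 0.00683 and an adjusted p of 0.157. Whether the Timp1 probes lie in the part removed by the allele is not given, so the signal in the knockout does not measure residual transcript. Among its relatives, Timp4 fell by 0.78 ± 0.25 (adjusted p = 0.0487), while Timp2 and Timp3 had differences of -0.23 and -0.29 that did not pass.

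Chronic DSS was followed by higher expression of 492 genes (2.47% of those tested) and lower expression of 1091 genes (5.47%). Most differences were small: 26 of the higher and 34 of the lower genes differed by a factor of 2 or more. The median difference over all genes was -0.04, and 8011 of the 19938 differences were above 0. In 1664 genes (8.35%) the 5 DSS and 5 control values did not overlap. After rescaling by cyclic loess the counts were 615 higher and 745 lower, so that the share of called genes that were higher was 45.2%, against 31.1% on the deposited scale. Lower calls were also the more frequent among dim probes. Of the 6646 dimmest genes 34 were higher and 307 lower, and of the 6646 brightest 328 and 348. The counts depended on single animals. Without DSS replicate 3 they were 291 higher and 602 lower, and without DSS replicate 4 they were 296 and 634. Without control replicate 1 they were 311 and 718, without control replicate 3 they were 305 and 690, and without control replicate 4 they were 349 and 718.

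**Figure D1:**
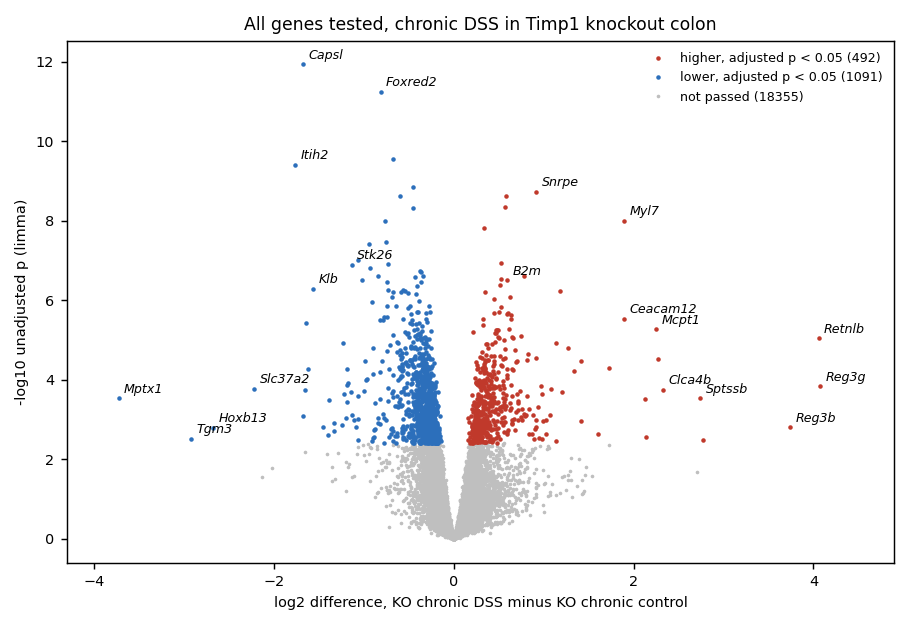
Each point is a gene, placed by its log2 difference (knockout chronic DSS minus knockout chronic control, horizontal) and by the −log10 of its unadjusted limma p (vertical). Red points are the 492 higher genes and blue points the 1091 lower genes that passed. Reg3g, Retnlb and Reg3b lie farthest to the right and Mptx1 farthest to the left, while Capsl has the smallest p.

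The largest increases were in epithelial antimicrobial genes. Reg3g encodes a secreted C-type lectin that kills Gram-positive bacteria. Its log2 signals were 7.69, 12.30, 8.64, 12.49 and 10.11 in DSS replicates 1 to 5, against 5.59, 5.49, 5.30, 8.33 and 6.16 in control replicates 1 to 5. Only DSS replicate 1 lay below the highest control, replicate 4. The difference was 4.07 ± 0.95, a 16.8-fold increase (adjusted p = 0.00742). Its neighbour Reg3b, a lectin of the same family, had signals of 6.80, 12.49, 8.20, 13.32 and 9.82 in DSS replicates and 5.91, 5.94, 6.32, 7.82 and 5.93 in controls, a difference of 3.74 ± 1.08 (adjusted p = 0.0292). The same arrays were highest in both genes, DSS replicates 2 and 4 among the treated and replicate 4 among the controls. The Reg3b call was lost without DSS replicate 2 or 4, without control replicates 1, 2, 3 or 5, and with the title letter as a random block. The adjusted p values over all settings ran from 0.00411 to 0.112.

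Retnlb, which encodes the goblet cell protein RELM-beta, had log2 signals of 8.61, 12.22, 11.25, 10.78 and 10.15 in DSS replicates 1 to 5, against 9.06, 6.18, 5.62, 5.64 and 6.24 in controls. DSS replicate 1 was the lowest treated array and control replicate 1 the highest control, and these were the values that overlapped. Retnlb rose by 4.06 ± 0.77, which is 16.7-fold (adjusted p = 0.00161). Duox2, the epithelial oxidase that makes hydrogen peroxide at the luminal surface, rose by 0.91 ± 0.26 (adjusted p = 0.0304) with no overlap between the groups. These 4 genes were the members of the 20-gene list of antimicrobial and acute phase genes that passed, and none fell. The list's median difference was 0.23, against -0.04 over all genes, of which 2.47% were higher. Lcn2, the iron-binding protein of neutrophils and inflamed epithelium, averaged 7.81 ± 0.52 in DSS arrays and 7.98 ± 0.22 in controls (adjusted p = 0.907). Reg3b and Reg3g are close relatives, and cross-hybridization between them was not tested.

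Clca4b, Sptssb and Plet1 were also among the largest increases. Clca4b, from a family of epithelial chloride channel regulators, had signals of 11.15, 11.58, 10.21, 9.72 and 10.41 in DSS replicates and 7.66, 8.14, 8.60, 8.72 and 8.28 in controls. The groups did not overlap, and the difference was 2.33 ± 0.55 (adjusted p = 0.00821). Sptssb, a small subunit of serine palmitoyltransferase, the first enzyme of sphingolipid synthesis, had signals of 9.95, 11.31, 11.36, 11.29 and 9.84 in DSS replicates, against 8.00, 5.47, 8.51, 8.66 and 9.40 in controls. It rose by 2.74 ± 0.67 (adjusted p = 0.0109). Control replicate 2 was far below the other controls in Sptssb, and also in Plet1, a surface protein of progenitor cells, which had 7.33 there against 10.51 to 11.40 in the other controls and 11.88 to 12.73 in DSS arrays. The Plet1 difference was 2.12 with all arrays (adjusted p = 0.011) and 1.41 without that control (adjusted p = 0.0377).

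Ceacam12, a carcinoembryonic antigen-related gene, rose by 1.90 ± 0.34 (adjusted p = 0.000853) and Myl7, the atrial myosin light chain in heart, by 1.90 ± 0.25 (adjusted p = 1.69e-05), both without overlap. Slc3a1, which carries cystine and basic amino acids at the brush border, rose by 2.14 ± 0.66 (adjusted p = 0.040). Arg2, the mitochondrial arginase, rose by 1.42 ± 0.40 (adjusted p = 0.0235). Sprr1a, a cornified envelope protein of squamous epithelium, rose by 1.33 ± 0.29 (adjusted p = 0.00451). The other squamous genes measured gave no broad change: 2 of 22 passed, Sprr1a and Sprr2d, and the median of the list was 0.01. The squamous keratin Krt5 averaged 7.28 ± 0.11 in DSS arrays and 7.27 ± 0.17 in controls.

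Proteases of mucosal mast cells were higher in every DSS array. Mcpt1 encodes a chymase that these cells release into the epithelium. It had signals of 7.82, 9.0, 8.64, 6.63 and 7.83 in DSS replicates 1 to 5, against 5.89, 5.72, 5.87, 5.63 and 5.60 in controls. The lowest treated array, replicate 4, was above the highest control, and the difference was 2.25 ± 0.41, or 4.75-fold (adjusted p = 0.00126). Mcpt2, an adjacent chymase gene, had 8.25, 9.33, 8.84, 6.79 and 8.26 in DSS replicates and 6.15, 5.99, 6.13, 5.88 and 5.98 in controls, a difference of 2.27 ± 0.47 (adjusted p = 0.00325). The pair share sequence, and cross-hybridization was not tested. They were the members that passed among 12 mast cell genes measured, whose median was 0.09, where 2.47% of all genes were higher. The carboxypeptidase Cpa3 had a difference of 0.53 ± 0.24 (adjusted p = 0.187), the connective tissue tryptase Tpsb2 of 0.11 and the chymase Cma1 of -0.11.

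**Figure D2:**
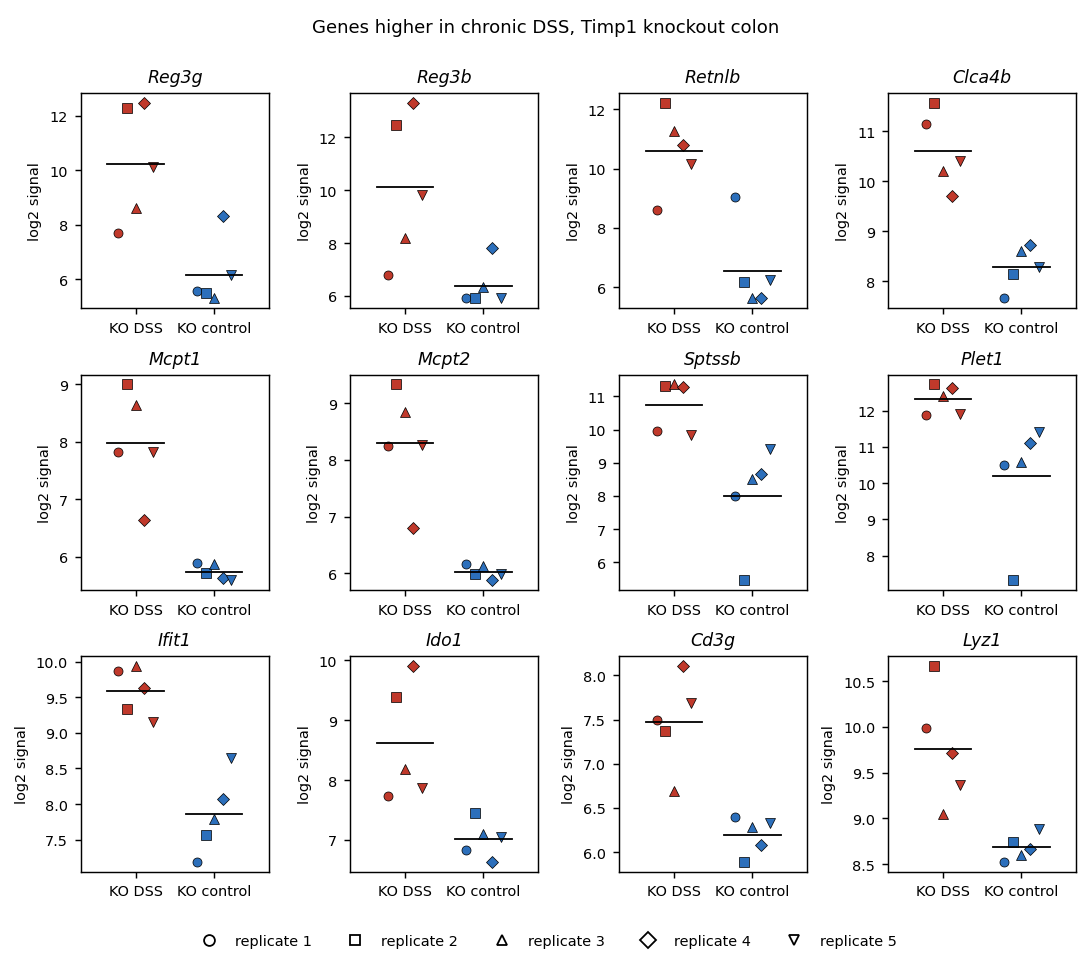
Log2 signal of 12 higher genes in each array, with knockout DSS in red at the left and knockout control in blue at the right of each panel. Marker shapes give the replicate number, which pairs nothing across groups, and the black line is the mean of 5. Mcpt1 and Clca4b separate completely, while DSS replicate 1 falls among or near the controls in Reg3g, Reg3b and Retnlb.

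A few interferon and antigen presentation genes rose. Ifit1, an antiviral protein that binds foreign RNA, had signals of 9.87, 9.33, 9.94, 9.64 and 9.15 in DSS replicates, against 7.19, 7.57, 7.79, 8.07 and 8.65 in controls. All DSS values lay above all controls, and the difference was 1.73 ± 0.37, or 3.32-fold (adjusted p = 0.0041). Oas3, a sensor of double-stranded RNA, rose by 0.92 ± 0.27 (adjusted p = 0.0287), and Ddx60, a helicase of the same response that was picked after its value was seen, rose by 1.20 ± 0.29 (adjusted p = 0.00912). Of 16 type I interferon genes measured, Ifit1 and Oas3 passed and none fell, where 2.47% of all genes were higher. The differences were above 0 in 15 of the 16, against 8011 of all 19938 genes, with a list median of 0.63. Oasl2 had 0.88 ± 0.30 (adjusted p = 0.0618). Ido1, the interferon-gamma target that degrades tryptophan, had 7.73, 9.40, 8.19, 9.91 and 7.87 in DSS replicates and 6.83, 7.46, 7.10, 6.63 and 7.05 in controls. It rose by 1.60 ± 0.49 (adjusted p = 0.0372) and was the gene that passed among 11 of its list. The Ido1 call was kept in 11 of 19 alternative settings, and the limma adjusted p reached 0.130 without DSS replicate 4.

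B2m, the light chain of MHC class I, was at 13.25, 13.47, 13.32, 13.61 and 13.50 in DSS replicates and at 12.67, 12.80, 12.78, 12.90 and 13.02 in controls. This small difference of 0.59 ± 0.09 separated all arrays (adjusted p = 0.000213), and B2m was the gene that passed among 9 of class I presentation. H2-Ab1, a class II chain of antigen-presenting cells, rose by 0.89 ± 0.28 (adjusted p = 0.0425). All 7 class II genes measured had positive differences with a median of 0.51, where 8011 of all 19938 genes had positive differences. Of the 7, H2-Ab1 alone passed, and its partner H2-Aa had 0.82 ± 0.29 (adjusted p = 0.0762).

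Promoters are shown for Ifit1, Oas3, Ddx60 and B2m because these raised genes hold the letters of the interferon-stimulated response element. Capitals mark that element, read here as GAAA, any 2 bases and GAAA again, or on the other strand TTTC, any 2 bases and TTTC. Each sequence is the 150 bases before the annotated start, in the direction of the gene, from RefSeq on GRCm38.p6: chr19:34640739-34640888 on the plus strand for Ifit1, chr5:120777660-120777809 on the minus strand for Oas3, chr8:61927937-61928086 on the plus strand for Ddx60 and chr2:122147537-122147686 on the plus strand for B2m.
Ifit1: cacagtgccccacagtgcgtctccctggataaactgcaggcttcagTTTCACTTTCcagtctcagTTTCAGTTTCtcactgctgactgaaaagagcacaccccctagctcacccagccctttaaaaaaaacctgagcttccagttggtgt
Oas3: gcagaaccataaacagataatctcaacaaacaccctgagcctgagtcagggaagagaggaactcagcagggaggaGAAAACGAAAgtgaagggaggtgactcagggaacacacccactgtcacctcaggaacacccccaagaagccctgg
Ddx60: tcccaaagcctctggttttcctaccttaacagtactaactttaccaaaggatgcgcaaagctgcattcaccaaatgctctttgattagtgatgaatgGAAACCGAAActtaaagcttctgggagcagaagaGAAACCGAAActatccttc
B2m: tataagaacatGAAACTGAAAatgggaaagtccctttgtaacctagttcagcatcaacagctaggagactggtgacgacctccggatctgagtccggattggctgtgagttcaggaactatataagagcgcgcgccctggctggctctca
In Ifit1 the element lies on the minus strand in 2 copies, beginning 104 and 85 bases before the start. Ddx60 holds 2 copies, at 53 and 19 bases before it, Oas3 holds 1 at 75 bases, and B2m 1 at 139 bases. The letters occurred in 3.44% of all 32851 promoter windows of 300 bases, which run from 250 bases before the start to 50 after it. They occurred in 28 of the 393 higher genes with a window (7.12%), in 21 of 862 lower genes (2.44%) and in 607 of 15614 tested genes (3.89%). In the type I interferon list 7 of 10 windows held them, in the interferon-gamma list 5 of 7, and in the class I list 1 of 7 (14.3%). A match describes letters in a window and does not show a binding site.

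A few T cell genes rose. Cd3g, a chain of the T cell receptor complex, had 7.49, 7.37, 6.69, 8.11 and 7.69 in DSS replicates and 6.40, 5.89, 6.29, 6.08 and 6.33 in controls, a difference of 1.27 ± 0.25 (adjusted p = 0.00224). DSS replicate 4 was highest and replicate 3 lowest among the treated arrays, and the groups did not overlap. Cd3e, the receptor kinase Zap70 and the killer cell receptor Klrd1 rose by 0.65, 0.32 and 0.62. Those 4 passed among 18 T cell and cytotoxic genes, where 2.47% of all genes were higher. All 18 differences were positive, against 8011 of all 19938 genes, with a list median of 0.37. The list's mean signal ran from 7.01 to 7.60 in DSS arrays and from 6.78 to 6.99 in controls. Chosen after their values were seen, Trgv1, a gamma T cell receptor segment, rose by 1.14, the T cell and natural killer marker Cd7 by 0.97, and the lymphocyte GTPases Gimap3 and Gimap4 by 1.03 and 0.99.

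No B cell gene passed. All 17 measured had positive differences, against 8011 of all 19938 genes, with a list median of 0.54. The B cell surface marker Ms4a1 had 8.78, 6.80, 6.97, 7.84 and 7.65 in DSS replicates and 6.46, 6.29, 6.15, 6.12 and 6.18 in controls. Every DSS value exceeded every control value, yet the spread among DSS arrays was wide and the difference of 1.37 ± 0.66 did not pass (adjusted p = 0.204). Of 12 plasma cell genes, Prdm1, the transcription factor of plasma cell differentiation, passed with 0.82 ± 0.20 (adjusted p = 0.0101). The IgA heavy chain Igha had a difference of 1.47 ± 0.57 (adjusted p = 0.11).

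Of the 20 genes measured on the macrophage and monocyte list, 1 rose, Lyz1, and none fell, where 2.47% of all genes were higher. Lyz1 is in the mouse the lysozyme gene of Paneth cells and so no specific macrophage marker. It had 9.99, 10.66, 9.05, 9.72 and 9.37 in DSS replicates and 8.53, 8.74, 8.61, 8.66 and 8.89 in controls. It rose by 1.07 ± 0.29 (adjusted p = 0.0186), and cross-hybridization with its relative Lyz2 was not tested. The list's median was 0.11. The pan-macrophage markers Adgre1 and Cd68 had differences of 0.05 and 0.13. The following genes were singled out after their values were seen. The phagocyte genes Gpnmb and Mpeg1 rose by 1.08 and 1.03. Folr2, a folate receptor of resident tissue macrophages, was at 6.99, 6.98, 6.73, 6.89 and 6.87 in DSS replicates and at 7.76, 7.74, 7.88, 7.94 and 7.85 in controls. The groups were well apart, with a fall of 0.94 ± 0.13 (adjusted p = 5.02e-05). Cd209f, a C-type lectin of the DC-SIGN family, fell by 1.23 ± 0.24 (adjusted p = 0.00191), and F13a1, the factor XIII A chain made by resident macrophages, by 1.10 ± 0.31 (adjusted p = 0.0231). Lyve1, the hyaluronan receptor of lymphatic endothelium and some resident macrophages, fell by 0.84 ± 0.24 (adjusted p = 0.0254) and was the call among 16 endothelial genes. The scavenger receptor Cd163 had a difference of -0.50 and the mannose receptor Mrc1 one of -0.40, and neither passed.

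The largest losses were also epithelial. Mptx1, a pentraxin of the intestinal mucosa, had log2 signals of 9.75, 6.00, 8.21, 5.73 and 10.68 in DSS replicates 1 to 5, against 12.68, 12.40, 11.86, 11.83 and 10.23 in control replicates 1 to 5. DSS replicate 5 lay above control replicate 5, and the other DSS values were below all controls. Mptx1 fell by 3.73 ± 0.92, 13.2-fold (adjusted p = 0.0109). Slc37a2, a sugar phosphate transporter, fell by 2.22 ± 0.52 (adjusted p = 0.00798). Itih2, a heavy chain of the hyaluronan-binding inter-alpha-trypsin inhibitor, was at 7.31, 6.80, 6.77, 6.48 and 7.10 in DSS replicates and at 8.58, 9.24, 8.56, 8.39 and 8.48 in controls. The groups were far apart, with a fall of 1.76 ± 0.20 (adjusted p = 1.94e-06). Capsl, a calcium-binding protein, was at 6.11, 6.44, 6.26, 6.68 and 6.39 in DSS replicates and at 7.64, 7.93, 8.31, 8.36 and 7.99 in controls. Its fall of 1.67 ± 0.15 had the smallest adjusted p of all genes, 2.33e-08.

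Other genes among the largest decreases were B3gnt7, Fut9, Cyp2f2, Wfdc2 and Klb. B3gnt7 and Fut9, which extend and fucosylate glycan chains, fell by 1.68 ± 0.45 and 1.62 ± 0.35. Cyp2f2, a cytochrome P450 that oxidizes small aromatic compounds, fell by 1.65 ± 0.39 (adjusted p = 0.00849), while Wfdc2, a secreted whey acidic protein, fell by 1.64 ± 0.29 (adjusted p = 0.000959). Klb, the co-receptor of the endocrine fibroblast growth factors, fell by 1.57 ± 0.25 (adjusted p = 0.0003). The secreted phospholipase Pla2g2f fell by 1.45 ± 0.42 and the cation channel Trpv3 by 1.33 ± 0.38. Casp14, a caspase of keratinocyte differentiation, and Ttr, the thyroxine carrier, fell by 1.40 and 1.34 with overlapping arrays.

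Expression of Tgm3, Hoxb13 and Abca12 split the DSS arrays. Tgm3, a transglutaminase that cross-links structural proteins, had 12.74, 8.80, 9.34, 6.98 and 12.71 in DSS replicates 1 to 5, against 12.97, 13.63, 13.01, 12.90 and 12.68 in controls. Hoxb13, the homeobox gene that marks the most posterior gut, had 10.69, 7.53, 6.90, 6.04 and 10.57 in DSS replicates and 11.05, 11.55, 11.05, 10.84 and 10.63 in controls. In both genes DSS replicates 2, 3 and 4 were far below the controls, while replicates 1 and 5 lay within or next to them. Abca12, a lipid transporter of keratinocytes, showed the mirror image, with 7.50, 10.17, 10.37, 11.12 and 7.18 in DSS replicates and 6.64, 5.95, 6.22, 6.34 and 7.33 in controls. The differences were -2.92 ± 0.91 for Tgm3, -2.68 ± 0.78 for Hoxb13 and 2.77 ± 0.87 for Abca12, with adjusted p of 0.0427, 0.0297 and 0.0449. Without DSS replicate 4 the adjusted p was 0.164 for Tgm3, 0.114 for Hoxb13 and 0.139 for Abca12. Each of these calls was also lost without DSS replicate 2 or 3 and without control replicate 1, 2, 3 or 4. The Tgm3 call was lost without control replicate 5 as well. In a fit of the 10 arrays alone the adjusted p was 0.0743 for Tgm3, 0.0584 for Hoxb13 and 0.033 for Abca12.

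Other genes, some of them regional along the gut, varied over the same arrays. Hoxb6, an anterior relative of Hoxb13, had 7.38, 8.97, 9.27, 9.29 and 7.07 in DSS replicates, against 7.25 to 7.90 in controls. The cytochrome Cyp2c65 had 8.63, 11.60, 11.50, 12.32 and 9.23 in DSS replicates, against 6.67 to 9.44 in controls, a difference of 2.70 ± 1.11 that did not pass (adjusted p = 0.13). The ileal bile acid transporter Slc10a2, picked after its values were seen, had 6.04, 7.63, 7.92, 10.90 and 6.11 in DSS replicates, against 6.23 to 6.66 in controls. DSS replicates 2, 3 and 4 were the high ones in all 3. Hoxb13 was the member that passed among 17 posterior Hox and Cdx genes. The list's mean signal was 8.36 to 8.57 in DSS arrays and 8.48 to 8.63 in controls, with a median difference of 0.01. Sucrase-isomaltase, Sis, a small intestinal enzyme, was 9.17 in DSS replicate 4 and between 5.31 and 5.74 in the 9 other arrays. Control replicate 2 had the highest Hoxd13 signal, 10.27, against 8.35 to 8.79 in the other controls. The part that the sampled segment of colon plays in the epithelial differences was not tested.

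**Figure D3:**
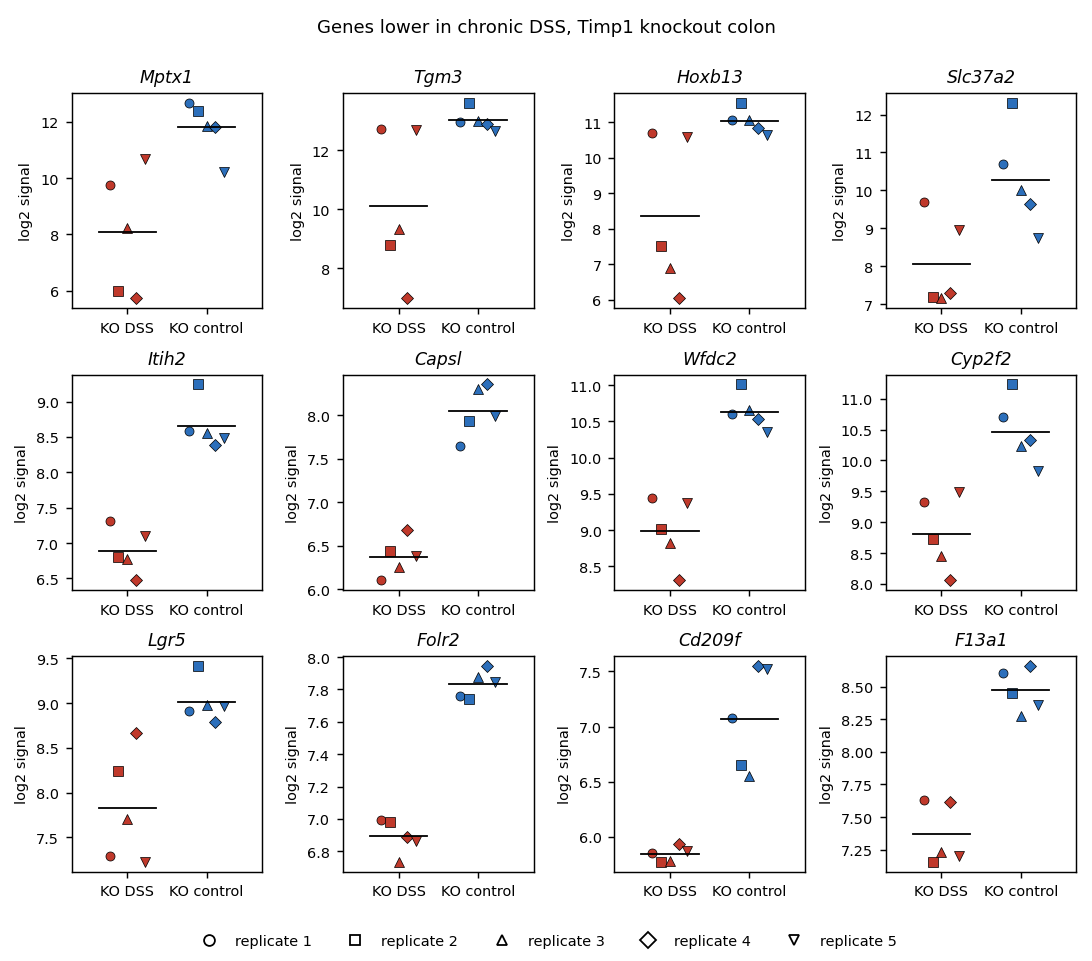
Log2 signal of 12 lower genes in each array, with knockout DSS in red at the left and knockout control in blue at the right of each panel. Marker shapes give the replicate number and the black line is the mean of 5. Itih2, Capsl and Folr2 separate completely, while DSS replicates 1 and 5 stay near the controls in Tgm3 and Hoxb13.

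Lgr5 and 2 other crypt genes fell. Lgr5, the receptor that marks crypt base stem cells, had 7.29, 8.24, 7.70, 8.66 and 7.23 in DSS replicates and 8.92, 9.42, 8.98, 8.79 and 8.97 in controls. The groups did not overlap, and Lgr5 fell by 1.19 ± 0.27 (adjusted p = 0.00714). Smoc2, a matrix protein of the stem cell signature, and Lrig1, a growth factor receptor antagonist, fell by 0.46 and 0.29. These 3 passed among 17 crypt and Wnt genes, and none rose. The list's median was -0.16. In the cell cycle list 2 of 23 passed, the replication gene Mcm5 with -0.51 and the transcription factor E2f1 with -0.42, and the proliferation marker Mki67 had 0.04 ± 0.20. Of 19 conjugating enzymes of drug metabolism, 2 passed, the glutathione transferases Gstt1 and Gstm2, which fell by 0.57 and 0.50. Of 23 oxidizing enzymes, Cyp2f2 alone passed and fell, while 17 of the 23 differences were above 0 and the list's median was 0.32. These counts stand beside the 5.47% of all genes that were lower.

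The matrix showed little change. Of 28 collagen and matrix genes, Col8a1, a network-forming short-chain collagen, fell by 0.97 ± 0.22 (adjusted p = 0.0058) and Col14a1, a fibril-associated collagen, by 0.64 ± 0.21 (adjusted p = 0.0498). None rose, where 2.47% of all genes were higher and 5.47% lower. Col1a1, the main fibrillar chain, had 0.04 ± 0.22. Of 24 metalloproteinases, Adam10 rose by 0.44 and Adam15 fell by 0.26. The matrix metalloproteinases that TIMP1 inhibits did not pass: Mmp3 had 0.32, Mmp9 -0.02, Mmp10 0.44 and Mmp13 0.53. Mmp7 had the largest absolute difference of the 24 and did not pass either. The 21 fibroblast genes and the 17 smooth muscle genes held no call.

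Neutrophil genes did not pass either. The 17 measured had a median difference of -0.02. S100a8, a calcium-binding protein that fills neutrophil cytosol, had 7.38, 6.55, 6.15, 6.19 and 6.32 in DSS replicates and 6.64, 6.07, 6.23, 6.53 and 6.41 in controls. DSS replicate 1 was the highest and the others lay among the controls. The cytokine Il1b had 9.07, 7.46, 7.69, 7.25 and 8.04 in DSS replicates, against 6.88 to 7.33 in controls, a difference of 0.83 ± 0.51 (adjusted p = 0.342). Of 31 cytokines and chemokines, the monocyte attractant Ccl8 rose by 0.99 ± 0.28 (adjusted p = 0.0238) and Csf2 fell by 0.30. In all, 16 of the 44 lists held no call, among them those of eosinophils, enteric neurons, tuft cells, enteroendocrine cells, the unfolded protein response, glycolysis and cholesterol synthesis. Over the 720 list genes measured, 24 were higher and 23 lower, which is 6.53% and near the 7.94% of all genes.

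The remaining lists held 1 to 3 calls each. In the complement list the component C4b and the decay factor Cd55 rose by 0.92 and 0.76. Ndufb8, a subunit of respiratory complex I, fell by 0.45, the junction protein Cldn12 by 0.37 and the lipid droplet protein Cidea by 0.28. Gsdma, a pore-forming gasdermin, fell by 0.30 and the elastase Cela1 by 1.18. Of 29 colonocyte transport genes Clca4b rose and 2 fell, Slc37a2 and the phosphate carrier Slc20a1, which fell by 1.14, and the list's median was -0.09. In the goblet list Retnlb was the call. Among the protease inhibitors Wfdc2 and Timp4 fell.

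**Figure D4:**
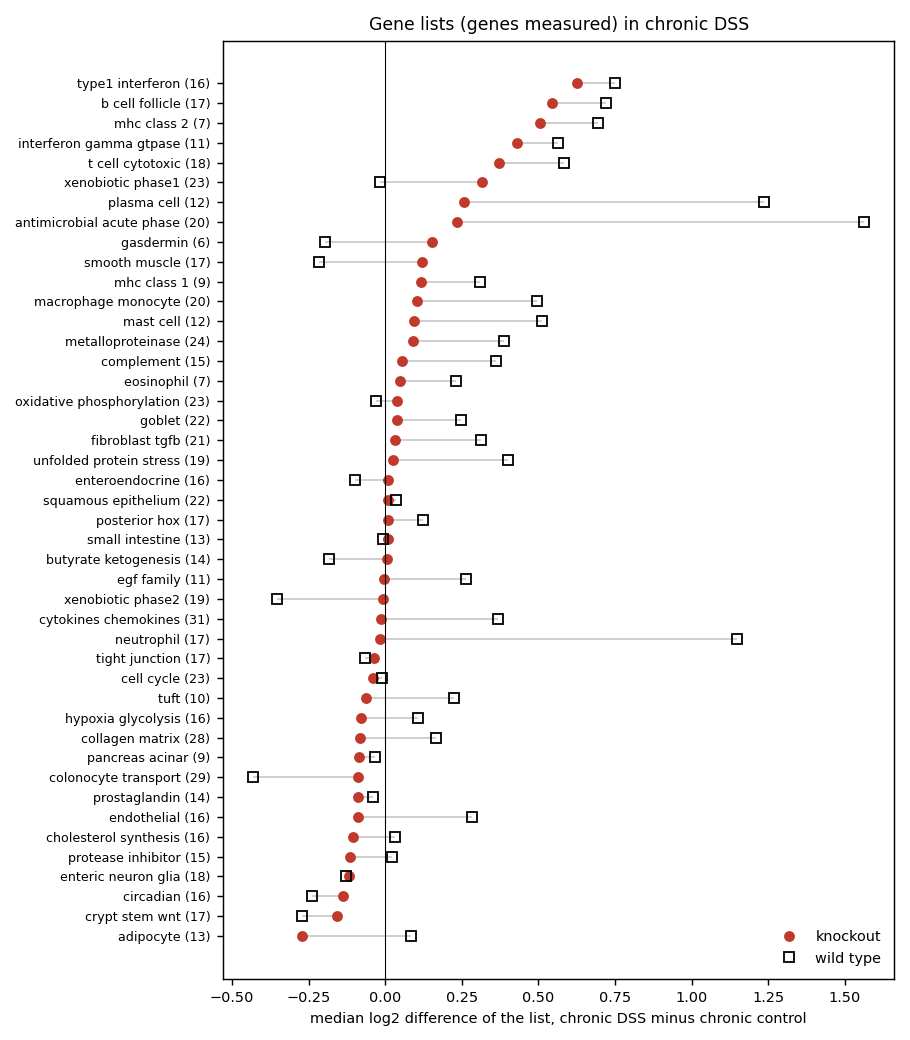
Median log2 difference (chronic DSS minus chronic control) of each of the 44 gene lists, with the number of genes measured in brackets. Filled circles are the knockout and open squares the wild type, joined by a line. The neutrophil list lies at -0.02 in the knockout and at 1.15 in the wild type, while the type I interferon list lies at 0.63 and 0.75.

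The largest knockout differences were set beside those of wild-type mice under chronic DSS. All 30 of the largest named knockout differences had the same sign in wild-type colon, and 28 passed there, the exceptions being Ido1 and Pla2g2f. In 26 of the 30 the wild-type difference was the larger. None of the 30 passed the test of the difference between genotypes. The smallest adjusted p was 0.0659, for Plet1, which had 2.12 in the knockout and 4.91 in the wild type, and 6 had an unadjusted p under 0.05. Over all genes, 1583 (7.94%) passed in the knockout and 2864 (14.4%) in the wild type, where 1154 (5.79%) were higher and 1710 (8.58%) lower. Of the higher genes 135 were shared, which is 27.4% of the knockout calls and 11.7% of the wild-type calls. Of the lower genes 426 were shared, 39.0% of the knockout and 24.9% of the wild-type calls.

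**Figure D5:**
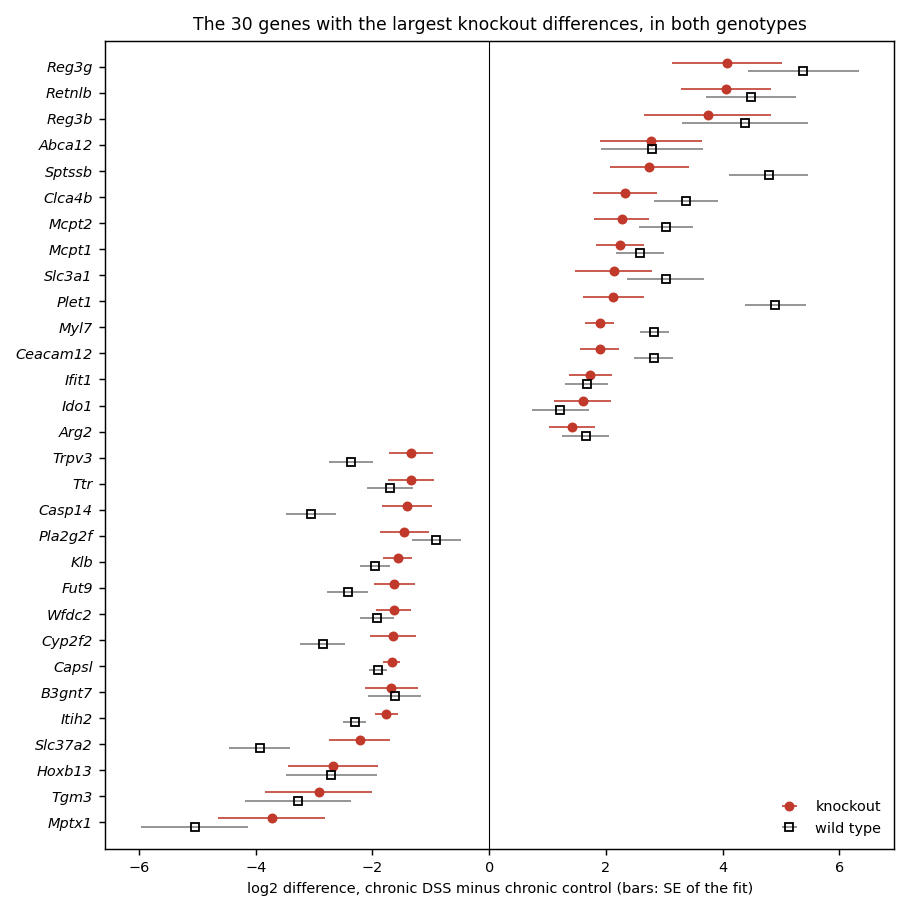
Log2 difference with its standard error for the 30 named genes, red circles for the knockout and open squares for the wild type. Every gene lies on the same side of 0 in both genotypes, and the wild-type difference is farther from 0 in 26 of them.

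Counts differed between genotypes in some lists, and no difference of a whole list was tested. In the neutrophil list 0 of 17 genes passed in the knockout and 9 in the wild type, with medians of -0.02 and 1.15. No neutrophil gene passed the test between genotypes: S100a8 had 0.14 in the knockout and 1.84 in the wild type (unadjusted p = 0.0327, adjusted p = 0.285), and Cd177 had 0.90 and 2.20 (unadjusted p = 0.00463, adjusted p = 0.136). Over all genes 7.94% passed in the knockout and 14.4% in the wild type. The antimicrobial list of 20 genes had 4 calls in the knockout and 10 in the wild type. The plasma cell list of 12 had 1 and 10, and the unfolded protein response list of 19 had 0 and 12. Such gaps were not particular to these lists: the 18 T cell genes had 4 and 14, the 12 mast cell genes 2 and 8. The 16 type I interferon genes had 2 and 9, while the 23 cell cycle genes had 2 and 0. The plasma cell median was 0.26 in the knockout and 1.24 in the wild type. In that list Fkbp11, an endoplasmic reticulum chaperone of secretory cells, passed the test between genotypes, with -0.14 in the knockout and 0.62 in the wild type (adjusted p = 0.0101).

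That test passed for 84 genes (0.421%), 54 with the larger value in the knockout and 30 with the larger value in the wild type. Snrpe, a core protein of the splicing machinery, had 9.40, 9.99, 10.21, 9.76 and 9.65 in knockout DSS replicates and 8.77, 8.94, 8.84, 8.83 and 9.02 in knockout controls, a rise of 0.92 ± 0.11. It had 0.14 in the wild type, and the genotypes differed by 0.78 ± 0.16 (adjusted p = 0.0305). The zinc finger genes Zfp942, Zfp944, Zfp935 and Zfp62 had 0.57, 0.41, 0.51 and 0.45 in the knockout and -0.47, -0.37, -0.36 and -0.32 in the wild type. Guf1, a mitochondrial translation factor, had 0.50 and -0.39. In the other direction Tomm5, of the mitochondrial import complex, had -0.59 in the knockout and 0.01 in the wild type, and Uqcc2, an assembly factor of respiratory complex III, had -0.44 and 0.23. Mmp28 had 0.27 in the knockout and 1.06 in the wild type. All 5 wild-type DSS arrays had titles of number 11, as did 3 of their controls, while 2 of those controls and all 10 knockout arrays had number 14. Title number and genotype can therefore not be fully told apart. With it as a covariate 186 genes passed. The count was 5 without knockout DSS replicate 3 or 4, 6 without DSS replicate 5, 384 without DSS replicate 1, 375 without DSS replicate 2 and 422 without control replicate 2. It was 15, 10, 20 and 46 without control replicates 1, 3, 4 and 5.

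Acute DSS in knockout colon was compared with the chronic exposure gene by gene. Of the 30 named genes, 7 also passed with the same sign under acute DSS: Clca4b, Ido1, Mptx1, Slc37a2, Itih2, Capsl and Wfdc2. In 2 of the 30 the sign was not the same. Of all 19938 genes, 223 passed under acute DSS in the knockout, 53 higher and 170 lower. Retnlb had a difference of 4.06 under chronic and 1.16 under acute DSS, and its acute controls averaged 10.03 ± 0.07 (SD, n = 3), against 6.55 ± 1.43 in the chronic controls (SD, n = 5). None of the 30 passed the test of chronic minus acute, for which the smallest adjusted p was 0.215. Over all genes 2 passed (0.01%). Ephx1, the microsomal epoxide hydrolase, had 0.08 under chronic and -1.06 under acute DSS, a difference of 1.14 ± 0.19 (adjusted p = 0.020). Foxred2, an endoplasmic reticulum flavoprotein, had -0.81 under chronic and -0.16 under acute DSS, a difference of -0.65 ± 0.12 (adjusted p = 0.0291). The acute arrays have other title numbers, so exposure and animal series cannot be told apart. Within the acute comparison the series were mixed too. All 3 acute knockout controls had titles starting with 2dss, as did 3 of the 6 acute DSS arrays. The other 3 acute DSS arrays had titles starting with a plain number. The 4 genes measured to check sex had a median difference of -0.82 under acute and -0.07 under chronic DSS in the knockout. Sex was not in the fit, and its part in the comparison of exposures was not tested. The count was 11 without chronic DSS replicate 1, 5 without chronic control replicate 2, 1 without control replicate 3, and 0 without DSS replicate 2, 3 or 4 or control replicate 4.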

How the data were processed

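The members and the gene lists were chosen with earlier results of these data known. The authors deposited log2 signals per transcript cluster. The submitters' processing notes name RMA, a robust average over probes after background correction and quantile scaling; the version and the base of the logarithm are not given in the sources used here, and the base was read as 2 from the range of the values. Of 35511 clusters, 23410 were in GEO's platform annotation, 21789 with 1 gene symbol, 1621 with several and 12101 not listed. Clusters with 1 symbol were used, with 1 cluster per gene where 999 genes had several, leaving 19938 genes. Differences were tested two-sided with limma 3.58.1 in R 4.3.3 (lmFit, contrasts.fit, eBayes) on 8 group means of 37 arrays, with 29 residual degrees of freedom and Benjamini-Hochberg adjustment. The fit was tested on simulated data. Chosen for naming were the 15 largest differences that passed in each direction and the 3 largest in each of 44 lists. Of the 800 list symbols 720 were measured. Also chosen were the 10 largest each way in the tests between genotypes and exposures, Timp1 to Timp4 and Syn1. Not all of the chosen genes are given with values here. Any other gene with values was added after its values were seen or is a marker from a list. No pair of the 10 arrays correlated above 0.996, so none was a copy of another's values. Whether any animal was sampled again was not tested. The title of control replicate 4 carries an added digit that the title does not explain. Arrays carry no counts, and the number per group limits precision. Promoters came from RefSeq, GRCm38.p6. Alternatives were the prior, a filter on dim genes, all clusters, cyclic loess, array weights, animal series and the compared arrays alone. Others were the title letter as a random block and, chosen after seeing the data, the title digit as a replicate block. Each of the 10 knockout chronic arrays was also left out in turn. No wild-type or acute array was left out in that way.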

Additional observations from a re-analysis of the deposited data

Results flagged for a closer look

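Groups of 5 values were examined for the genes chosen for naming and for others added to them, some after their values were seen. Single arrays lay far from the other 4 of their group in 24 of these 382 groups. That is 6.28%, where chance gives about 1 in 20. Of the 24, 19 were in control arrays, and 11 of them in control replicate 2. That array was low in Plet1 (7.33), Fabp2 (9.24), Akr1c18 (5.88), Alox5ap (8.02), Fkbp11 (7.14), Prdm1 (7.12) and Slc6a9 (9.91). It was high in Hoxd13 (10.27), Osr1 (10.03), Trpv3 (10.39) and Itih2 (9.24). Control replicate 4 was high in Reg3g (8.33), Reg3b (7.82), Cfap20dc (7.10) and Ndufb8 (11.04). Control replicate 1 was high in Retnlb (9.06) and Pck1 (11.17) and low in Ugt2b35 (8.05), and control replicate 5 was high in Ddx60 (7.95). Among DSS arrays, replicate 4 was high in Sis (9.17) and in the clock gene Nr1d2 (10.68), replicate 3 low in the pancreatic colipase Clps (9.64), replicate 1 low in the neuronal gene Snap25 (8.56) and replicate 2 low in the enteric neuropeptide Vip (8.20).

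The response to chronic DSS differed between genotypes by the test of the difference itself (knockout minus wild type, log2). The 10 largest positive values were Zfp942 1.04, Slc25a36 0.94, Rbm12b2 0.93, Guf1 0.90, Zfp935 0.87, Zfp944 0.79, Snrpe 0.78, Clk1 0.77, Zfp62 0.76 and Aspa 0.76. The 10 largest negative values were Igkv6-20 -3.19, Dmrta1 -1.33, Mmp28 -0.79, Fkbp11 -0.77, Ltbp2 -0.77, Uqcc2 -0.67, Slc6a9 -0.61, Tomm5 -0.60, Sh3bp4 -0.56 and Zfp42 -0.55. Igkv6-20, an immunoglobulin kappa variable segment, had -0.47 in the knockout and 2.72 in the wild type. In Fkbp11 and Slc6a9 control replicate 2 was also low, and without it the values were -0.84 for Fkbp11 and -0.68 for Slc6a9, both past the threshold. Between exposures in the knockout, chronic minus acute, Ephx1 differed by 1.14 and Foxred2 by -0.65.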

How the results depend on the processing

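The titles of the 10 arrays carry a digit that recurs in DSS and control arrays, and the labels do not say what it stands for. With this digit as a replicate block, an alternative chosen after the data were seen, 261 genes were higher and 531 lower under chronic DSS in the knockout, 10 differed between genotypes and 1 passed for chronic minus acute. Of these 792 calls in the knockout, 779 were also made without the block, and 10 of the 30 named genes lost their call. Deviations from the group means correlated at -0.33 to 0.20 over the 7 DSS and control pairs with the same digit, of which 3 were over 0.1. Over the other 18 pairs they correlated at -0.35 to 0.27, with 6 over 0.1. The medians were -0.05 and -0.03. So few pairs cannot decide whether arrays with the same digit shared anything besides it. The block also drops control replicate 3, the sole array with its digit. Array weights gave 1223 higher and 2469 lower genes under chronic DSS in the knockout, 4953 calls in the wild type, 1832 between genotypes and 1249 for chronic minus acute. The count between genotypes was 146 without the dimmest 33.3% of genes, 189 over all clusters, 171 with cyclic loess and 186 with animal series as a covariate. The count for chronic minus acute was 8 with cyclic loess, 23 with animal series and 0 on the compared arrays alone. Leaving out 1 of the 10 arrays gave 291 to 621 higher genes, 602 to 1165 lower genes, 5 to 422 between genotypes and 0 to 11 for chronic minus acute. Fitting the 10 arrays alone gave 589 higher and 912 lower genes, and 1017 genes were called in both fits, which is 67.8% of the 10-array calls and 64.2% of the calls from all arrays. Of the 30 named genes, that fit lost Plet1, Tgm3, Hoxb13, Slc37a2 and Casp14, and the title letter as a random block lost 7 (consensus correlation 0.0264). Leaving out 1 of the 10 arrays lost 0 to 12, the most without DSS replicate 4. Reg3g, Retnlb, Sptssb, Clca4b, Mcpt1, Mcpt2, Myl7, Ceacam12, Ifit1, Mptx1, Itih2, Capsl, Cyp2f2, Wfdc2, Fut9 and Klb passed in every setting run that tested them. The calls kept in the fewest of 19 alternative settings were Casp14 (7), Tgm3 (8), Hoxb13 (9), and Abca12, Slc3a1 and Ido1 (11 each). Reg3b and Pla2g2f kept theirs in 12 each. The difference of Sis ran from -0.018 (without DSS replicate 4, adjusted p = 0.992) to 0.95 (without DSS replicate 5), and that of Aspa was 0.011 with array weights (adjusted p = 0.959); for Aspa the cause was not tested. In the fit of the 10 arrays alone sex could not be a covariate, since by the Y-linked gene Uty it did not vary among them. Their highest Uty signal was 5.24, while Uty reached 9.95 in the other arrays of the series. Sex was not in the fit of all arrays either, and its part in that fit was not tested.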

Other observations

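Families formed from gene symbols after the calls were seen gave the following counts under chronic DSS. Over all genes, 2.47% were higher and 5.47% lower in the knockout, and 5.79% were higher and 8.58% lower in the wild type. Of 67 ribosomal protein genes, 11 were higher and 1 lower in the knockout, against 0 and 5 in the wild type. Rpl38, of the large subunit, was at 12.40, 12.73, 12.72, 12.64 and 12.59 in DSS replicates and at 12.17, 12.09, 11.86, 12.05 and 12.09 in controls, a rise of 0.57 ± 0.07 (adjusted p = 9.41e-06). It had 0.13 in the wild type, and the genotypes differed with an adjusted p of 0.0429. Of 50 proteasome subunit genes, 6 were higher and 1 lower, with a median difference of 0.11. Of 77 mitochondrial ribosomal protein genes, 5 were higher and 6 lower in the knockout, against 0 and 5 in the wild type.

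Of 49 genes of cilia and flagella named Cfap, Dnah or Drc, 9 were lower and 0 higher, with a median of -0.13. Cfap20dc was at 6.20, 6.35, 6.36, 6.30 and 6.30 in DSS replicates and at 6.92, 6.96, 6.95, 7.10 and 6.95 in controls, and fell by 0.67 ± 0.08 (adjusted p = 1.89e-06). These are dim signals. Of 347 zinc finger genes named Zfp, 9 were higher and 33 lower in the knockout, against 1 and 100 in the wild type. Of 1027 olfactory receptor genes, which colon is not known to use, 3 were higher and 18 lower, and the family's median was -0.04, the same as the median of all genes.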
